A study of Mus musculus with 5 samples.

Results

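The regions described here are 1265 remote active elements in mouse epiblast stem cells of the line EpiSC9. They are H3K4me1 peaks on chromosomes 1 to 19 that overlapped an H3K27ac peak by at least 1 bp, overlapped no H3K27me3 peak, and whose edge lay more than 100 kb from the nearest edge of an H3K4me3 peak. They made up 1.66% of the 76362 H3K4me1 peaks on these chromosomes (95% Wilson interval 1.57 to 1.75), out of 76772 in the whole list. The culture medium held 10 ng/ml FGF2, a layer of irradiated embryonic fibroblasts served as feeder, and each immunoprecipitation started from 5000000 crosslinked cells of this single line. Each of the 4 histone H3 marks had 1 library and no replicate, so shares and medians describe these libraries, no test between groups was possible, and intervals cover counting over peaks only. Chromatin of the feeder fibroblasts may be in the libraries, and its part in any peak was not tested.

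Enhancers are stretches of DNA that raise transcription of a gene on the same chromosome, sometimes across long intervals that hold no other promoter. Their nucleosomes carry H3K4me1, written largely by the methyltransferases KMT2C and KMT2D, and those in use commonly also carry H3K27ac, written by the acetyltransferases EP300 and CREBBP. H3K27me3 is the mark of Polycomb repressive complexes, and H3K4me3 marks promoters. Epiblast stem cells represent the primed state of pluripotency, in which the enhancer marks differ widely from those of naive embryonic stem cells. "Active" below refers to the combination of marks alone, since neither transcription nor enhancer function was measured here. H3K4me3 peaks stand in for promoters, so a silent gene without the mark leaves no trace in the distances.

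Sequence far from H3K4me3 was wide but sparsely marked. On chromosomes 1 to 19, 1030 Mb lay more than 100 kb from any H3K4me3 peak, which was 42.8% of the 2407 Mb between the first and last peaks of each chromosome. This sequence held 7338 H3K4me1 peaks, 9.61% of the autosomal list, or 7.12 per Mb, against 50.1 per Mb in the rest. The latter counts every H3K4me1 peak within 100 kb, with the 23962 that overlapped H3K4me3 and the 1430 up to 1 kb away. The sequence beyond 100 kb includes any unsequenced or unmappable bases, whose amount was not determined. Remote active elements reached 1.23 per Mb there. Active H3K4me1 peaks between 1 and 100 kb from H3K4me3 reached 5.95 per Mb of the sequence within 100 kb.

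H3K4me1 peaks were thus sparser far from H3K4me3, while the portion of them that carried acetylation varied little between 1 and 500 kb. It was 56.1% of H3K4me1 peaks that overlapped H3K4me3 and 24.3% (22.1 to 26.6) of those up to 1 kb away. Among H3K4me1 peaks beyond 100 kb, 17.2% (16.4 to 18.1) had H3K27ac without H3K27me3. The corresponding share was 19% (18.6 to 19.4) of 30225 peaks over 10 to 100 kb away and 18.3% (17.7 to 19) of 13407 peaks over 1 to 10 kb away. In finer steps it was 19.6% at 25 to 50 kb, 18.2% at 50 to 100 kb, 16.5% at 100 to 200 kb and 17.9% at 200 to 500 kb. Beyond 500 kb the share was 24.2% (20.0 to 29.0), with 83 of 343 peaks active. Those 83 elements were spread over 65 separate intervals, no more than 4 in any of them, and without the interval that held 4 the share was 23.4%.

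The remaining remote H3K4me1 peaks were almost all bare of both H3K27 marks. Neither mark lay on 6052 of the 7338 (82.5%, 81.6 to 83.3), and H3K27me3 was found on 21 (0.286%, 0.187 to 0.437), 1 of which also overlapped H3K27ac. These shares were not computed for H3K4me1 peaks closer to H3K4me3 or for the whole list. They are therefore not read as particular to remote peaks. Of all 9466 active elements more than 1 kb from H3K4me3, the remote ones made up 13.4% (12.7 to 14.1). With H3K4me3 limited to peaks at or above its median score, 2337 elements were remote and this share was 20.7%, so both values depend on weak H3K4me3 peaks. A further 5742 lay over 10 to 100 kb away, called middle-range below, and 2459 lay over 1 to 10 kb away, called near.

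**Figure D1:**
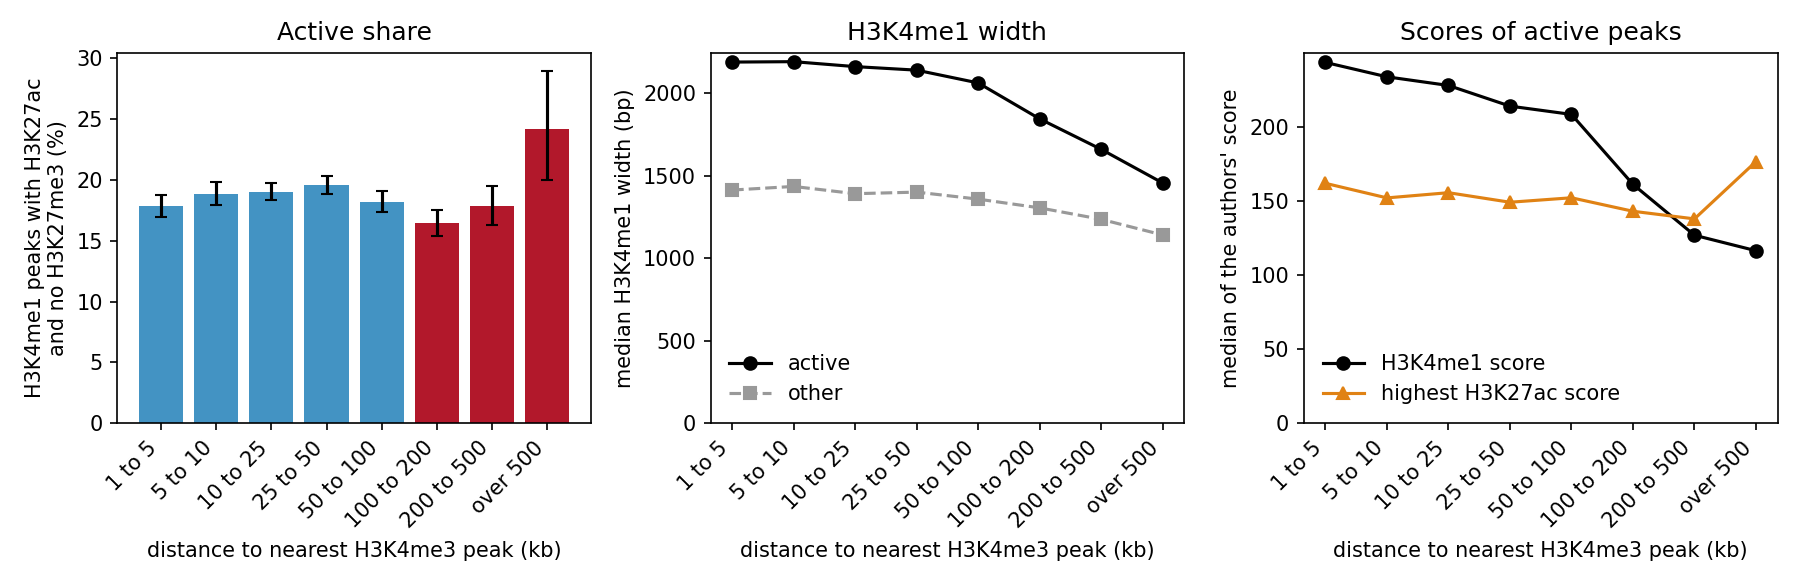
H3K4me1 peaks on chromosomes 1 to 19 by distance to the nearest H3K4me3 peak in kb. Left, percent with H3K27ac and no H3K27me3 with 95% Wilson intervals, red beyond 100 kb; middle, median H3K4me1 width in bp of active and other peaks; right, median H3K4me1 score and median highest H3K27ac score of active peaks. The active share stays between 16.5% and 19.6% from 1 to 500 kb, while the H3K4me1 width and score of active peaks are lower at each step beyond 10 kb and the H3K27ac score is not; each score is read against its own list, not against the other.

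The distances chosen by the rule ran from 100.0 kb to 1797 kb, with a median of 163 kb and an interquartile range of 125 to 254 kb. Most members were therefore closer to the 100 kb limit than to the far end, and the limit fell within a continuous spread. The members just inside it lay at 100.0 kb on chromosome 1 (94267679 to 94269325) and at 100.1 kb on chromosome 12 (9138074 to 9140713). Their H3K4me1 scores were 162 and 326. Just outside it, active peaks lay at 99.98 kb on chromosome 5 (151856221 to 151858290) and at 99.8 kb on chromosome 8 (90351298 to 90362594), with scores of 185 and 1699. All coordinates are 1-based positions of the mm9 assembly.

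H3K4me1 at remote active elements was narrower and had lower scores than at active elements closer to H3K4me3. Remote elements had a median H3K4me1 width of 1744 bp (interquartile range 1272 to 2453), against 2128 bp (1502 to 3102) for middle-range and 2191 bp (1518 to 3254) for near ones. The authors' score of each peak, which ranks peaks within a list and starts at 50, had a median of 147 at remote elements, against 217 at middle-range and 237 at near elements. Remote elements thus reached 0.820 of the middle-range median width and 0.675 of its median score. Wide peaks of 5 kb or more made up 2.45% of remote (31 elements), 7.04% of middle-range and 8.99% of near active elements. Remote peaks without H3K27 marks were smaller still, at 1276 bp and a score of 88.2. This last contrast is bound to the rule, because wider peaks meet more H3K27ac peaks.

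Within the remote elements the same order continued outward. The median width was 1846 bp at 100 to 200 kb (787 elements), 1661 bp at 200 to 500 kb (395 elements) and 1457 bp beyond 500 kb. Median H3K4me1 scores in these steps were 161, 127 and 116. H3K4me1 peaks without the active combination also narrowed with distance, to medians of 1306, 1237 and 1142 bp. Over the 1265 elements, Spearman's rho between distance and H3K4me1 width was -0.15, a description over elements that share 1 library.

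The acetylation on remote elements was close in strength to that of active elements 1 to 100 kb from H3K4me3. Active peaks still closer scored higher, with median highest H3K27ac scores of 650 where they overlapped H3K4me3 and 226 up to 1 kb away. The highest H3K27ac score on an element had a median of 144 at remote elements (95% interval of the median 136 to 154), against 152 (147 to 159) at middle-range and 155 (149 to 166) at near elements. In the 3 steps of distance beyond 100 kb that median was 143, 138 and 177. Spearman's rho between distance and the highest H3K27ac score over the 1265 elements was -0.0076. Scores of 3100 or more, where many of the authors' scores stop, occurred on 27 remote elements (2.13%), 2.46% of middle-range and 3.05% of near ones. H3K4me1 and H3K27ac scores of the same element were weakly ordered together, with a Spearman's rho of 0.22 at remote and 0.30 at middle-range elements.

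**Figure D2:**
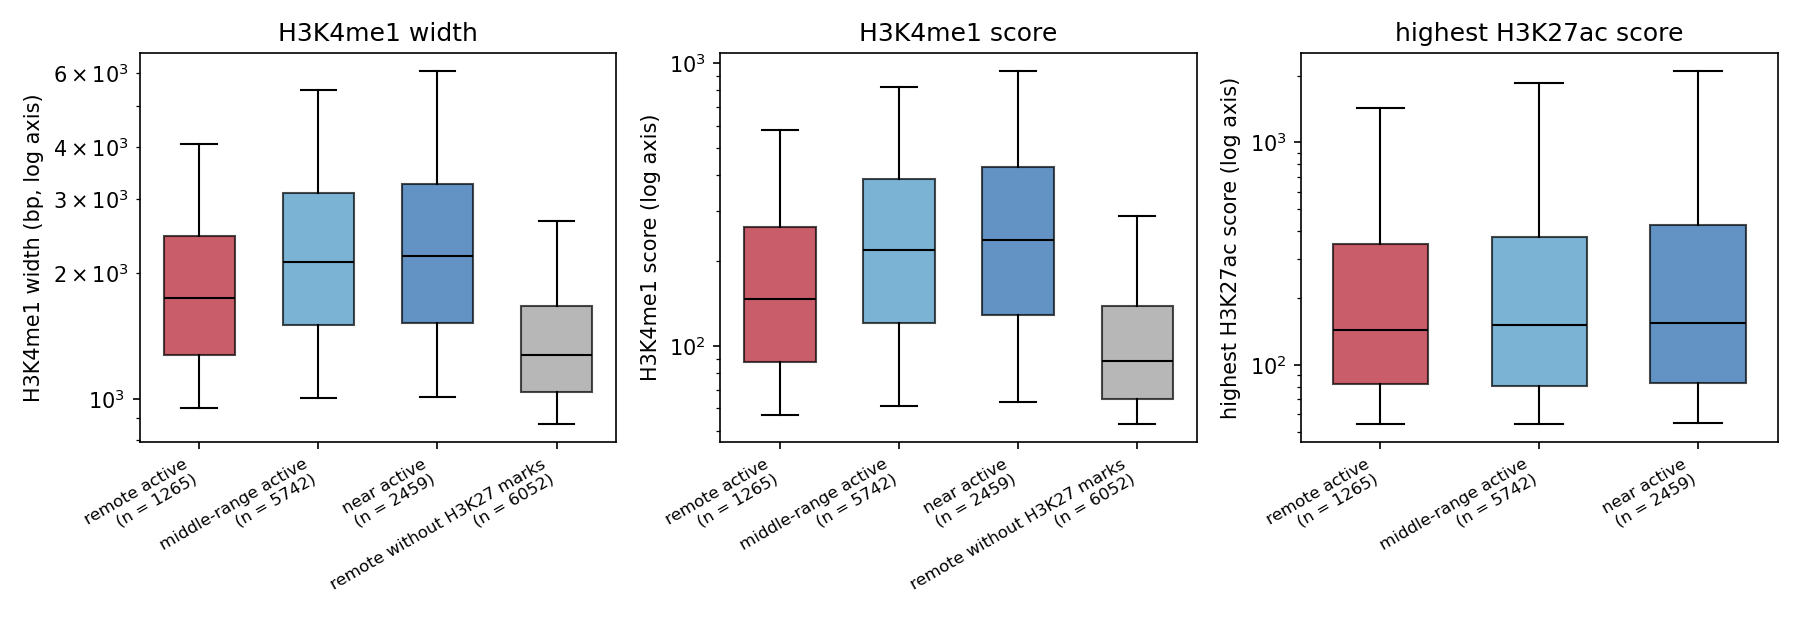
Box plots of H3K4me1 width in bp, H3K4me1 score and highest H3K27ac score on log axes for remote active, middle-range active and near active elements and for remote H3K4me1 peaks without H3K27 marks. Boxes span the quartiles with the median as a line, and whiskers reach the 5th and 95th percentiles of peaks in 1 library per mark. Remote active elements have a median H3K4me1 width of 1744 bp against 2128 bp in the middle range, while the H3K27ac medians are 144 against 152.

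Because H3K4me1 strength differed with distance, the active share was also read within quartiles of the H3K4me1 score over the whole list. In the lowest quartile, up to a score of 78.6, 8.36% (7.38 to 9.46) of peaks beyond 100 kb were active, against 7.12% (6.61 to 7.68) in the middle range. In the next quartile the share was 15% (13.6 to 16.6) beyond 100 kb and 11.5% (10.9 to 12.3) in the middle range. The quartile above that gave 21.9% (19.9 to 24.0) beyond 100 kb and 20.8% (19.9 to 21.8) in the middle range. Among peaks of the highest quartile, above a score of 232, it was 42.1% (38.9 to 45.4) beyond 100 kb and 44.3% (43.0 to 45.5) in the middle range. In 3 of the 4 quartiles the share was thus higher beyond 100 kb than in the middle range, although it was lower there over all peaks. The intervals of these 2 classes were apart in the second quartile alone. For peaks over 1 to 10 kb away the shares, from the lowest quartile up, were 6.55% (5.80 to 7.38), 10.6% (9.62 to 11.7), 18.4% (17.1 to 19.8) and 42.3% (40.5 to 44.1).

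Beyond 500 kb the shares within score quartiles were higher at every level than for all peaks beyond 100 kb, on small numbers. They were 10.5% of 153 peaks in the lowest quartile, 27.4% of 113 in the next, 41.4% of 58 in the one above and 63.2% of 19 in the highest. The interval of the last ran from 41.0% to 80.9%.

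The overlap was also read from the acetylation side, where about as many remote peaks lacked H3K4me1 as carried it. Of 3068 autosomal H3K27ac peaks more than 100 kb from H3K4me3, 1603 (52.2%, 50.5 to 54.0) overlapped an H3K4me1 peak. The share was 73.6% (72.8 to 74.5) of 10214 peaks in the middle range and 78.8% (77.6 to 80.0) of 4592 near ones. Where H3K4me1 was present, the median H3K27ac width was 734 bp, against 578 bp for the 1465 remote peaks without it. Their H3K27ac scores had medians of 126 with H3K4me1 and 87.3 without it. The contrast was not particular to remote peaks. In the middle range the medians were 769 against 577 bp, with scores of 123 against 79.0. Among near H3K27ac peaks they were 784 against 566 bp, with scores of 124 against 77.3. The sparser H3K4me1 list far from H3K4me3 bears on this share, and its part was not tested.

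Acetylation sat near the middle of the remote elements. An H3K27ac peak covered the H3K4me1 centre in 71.6% of remote, 69.4% of middle-range and 67.8% of near active elements. The centre of the H3K27ac peak with the largest overlap lay a median of 279 bp from the H3K4me1 centre in remote elements, against 316 bp in middle-range ones. Remote elements were also narrower, at a median of 1744 bp against 2128 bp, which leaves less room for an offset. H3K27ac covered a median of 904 bp, or 55.6%, of a remote element and 988 bp, or 49.5%, of a middle-range one. The covered share was thus higher in remote elements while the covered length was lower. The width of overlapping H3K27ac peaks had a median of 1059 bp (interval of the median 984 to 1143) at remote elements. At middle-range elements it was 1108.5 bp (1071 to 1143). The part of either width in the covered share and length was not tested.

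Acetylated nucleosomes on either side of a nucleosome-free core are a common layout at enhancers. In 315 remote elements (24.9%, 22.6 to 27.4) the H3K4me1 peak overlapped 2 or more H3K27ac peaks, which may extend past its edges, close to the 24.2% of middle-range and 25.3% of near elements. Elements with 3 or more were rarer among remote ones, at 22 (1.74%, 1.15 to 2.62) against 3.26% (2.83 to 3.75) in the middle range, and 4 was the most on any remote element. Every overlapping H3K27ac peak lay wholly inside the H3K4me1 peak in 57.9% of remote and 67.2% of middle-range elements, and 82 remote elements (6.48%) lay wholly under H3K27ac, against 3.59% of middle-range ones. The shares with 3 or more peaks, wholly inside and wholly under can depend on H3K4me1 width, which was lower at remote elements. The part of width was not tested, so no different layout is read from them. Altogether 1583 distinct H3K27ac peaks lay on the 1265 elements, of which 21 were shared by 2 neighbouring elements and 1 by more.

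**Figure D3:**
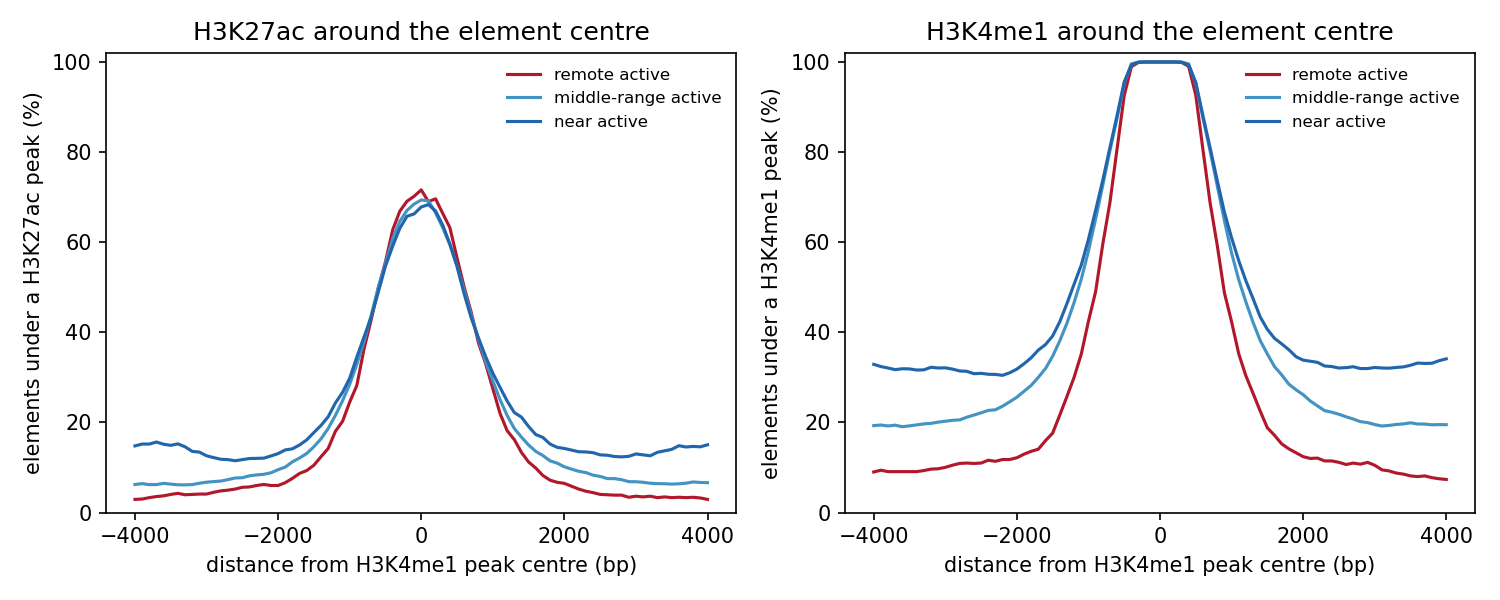
Percent of remote active, middle-range active and near active elements that lie under an H3K27ac peak (left) or an H3K4me1 peak (right) at each distance in bp from the centre of the H3K4me1 peak. At the centre 71.6% of remote elements are under H3K27ac, and 2000 bp to the right 12.4% of remote and 26.2% of middle-range elements are under H3K4me1.

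The surroundings of remote elements were emptier of enhancer marks. A remote active element had a median of 2 other H3K4me1 peaks with centres within 50 kb, against 8 for middle-range and 9 for near elements. None stood within 50 kb of 273 remote elements (21.6%, 19.4 to 23.9), against 2.04% of middle-range and 0.285% of near ones. For other active peaks within 50 kb the median was 0 at remote, 2 at middle-range and 4 at near elements, and 728 remote elements (57.5%) had none. Remote peaks without H3K27 marks had the same median of 2 H3K4me1 neighbours, and 67.7% of them had no active peak within 50 kb. The rule itself places remote elements where H3K4me3 and the H3K4me1 beside it are absent, so part of this emptiness follows from the choice.

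Polycomb marks were mostly far away as well. The nearest H3K27me3 peak lay a median of 291 kb from a remote active element (interquartile range 148 to 581), against 156 kb for middle-range and 119 kb for near elements. Remote peaks without H3K27 marks had a median of 252 kb. In 87.4% of remote active elements no H3K27me3 peak came within 100 kb, and in 137 (10.8%) none came within 1 Mb. For remote peaks without H3K27 marks these shares were 86.4% (85.5 to 87.3) and 6.38% (5.79 to 7.02). The rule keeps out every H3K4me3 peak within 100 kb, also those with H3K27me3, so part of this distance follows from the choice.

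The state of the nearest H3K4me3 peak, the closest promoter-like region of an element, was examined next. The 1265 elements had 837 distinct nearest H3K4me3 peaks, so elements that share one are not separate examples. Counted by element, 47.3% (44.5 to 50.03) of remote elements had a nearest H3K4me3 peak with H3K27ac and no H3K27me3, against 60.1% (58.8 to 61.4) of middle-range and 67.8% (65.9 to 69.6) of near ones. A bivalent nearest peak, with H3K27me3 and no H3K27ac, was found for 13.9% (12.1 to 15.9) of remote, 7.26% (6.62 to 7.96) of middle-range and 4.07% (3.35 to 4.92) of near elements. Bivalent promoters typically belong to developmental regulators that are held silent. Among all 27970 autosomal H3K4me3 peaks, counted by peak, 48.4% carried H3K27ac alone and 15.8% H3K27me3 alone. Both values lay inside the remote intervals, while middle-range and near shares were higher for H3K27ac and lower for H3K27me3. The units differ, however, and the intervals treat elements that share a nearest peak as separate. The 837 distinct peaks were not counted by state, so no likeness to the whole list is read from this.

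The nearest peak carried neither H3K27 mark for 38.1% of remote elements. Counted by peak, the 1378 H3K4me3 peaks at the ends of gaps that held a remote element carried H3K27ac alone in 41.7% (39.2 to 44.4), H3K27me3 alone in 15.2% and neither in 42.6% (40.01 to 45.2), where a gap is an interval between neighbouring H3K4me3 peaks. Over all 27970 autosomal H3K4me3 peaks the shares were 48.4%, 15.8% and 34.9% in the same order. For remote peaks without H3K27 marks, 40.3% (39.1 to 41.5) had an acetylated and 16.7% (15.8 to 17.6) a bivalent nearest H3K4me3 peak. For remote active elements the corresponding shares, 47.3% and 13.9%, lay between these and the middle-range values. Nearest along the chromosome does not identify the gene an element acts on.

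Remote elements lay in 720 of the 2607 intervals between H3K4me3 peaks, or at chromosome ends, that contained sequence beyond 100 kb (27.6%). Such intervals are called H3K4me3 gaps here. The gaps with a remote element had a median length of 563 kb, against 347 kb for the 1887 gaps without one. A single element was held by 421 gaps, while 28 gaps held 5 or more and accounted for 175 elements. Of the elements, 1261 lay between H3K4me3 peaks and 4 between the outermost H3K4me3 peak and a chromosome end.

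Longer gaps held an element more often but at lower density. The 869 gaps of 200 to 300 kb contained 38.2 Mb beyond 100 kb in all, and the 359 gaps over 1000 kb contained 546 Mb. Each longer gap thus had more room for an element. How far this accounts for the share of gaps that held one, or for their greater length, was not tested. In gaps of 200 to 300 kb, 12.7% of 869 gaps held one and the density was 3.85 elements per Mb of sequence beyond 100 kb. In gaps over 1000 kb, 44.3% of 359 held one, at 0.573 per Mb. H3K4me1 peaks thinned out more than active ones over this range, to 2.73 per Mb in gaps over 1000 kb, against 23.0 per Mb in gaps of 200 to 300 kb. The active share of remote H3K4me1 peaks was 16.7% (14.4 to 19.3), 14.3% (12.9 to 15.7), 17.9% (16.5 to 19.4) and 21.0% (19.03 to 23.2) from the shortest to the longest of the 4 classes of gap.

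Every autosome carried remote active elements. The number was lowest on chromosome 19, with 23, and highest on chromosome 1, with 110. Per Mb beyond 100 kb the density was lowest on chromosome 7, at 0.715, and highest on chromosome 11, at 1.78, around a median of 1.22. The active share of remote H3K4me1 peaks ran from 13.4% (10.4 to 17.2) on chromosome 5 to 24.0% (19.9 to 28.7) on chromosome 10. The Wilson intervals of 2 chromosomes, 10 and 16, lay above the share of 17.2% over all autosomes, with lower bounds of 19.9% and 17.7%, and that of chromosome 5 lay just below it. No allowance was made for reading 19 intervals, and the share over all autosomes includes these chromosomes. Remote elements made up between 8.28% (chromosome 7) and 18.6% (chromosome 14) of the active distal elements of a chromosome.

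**Figure D4:**
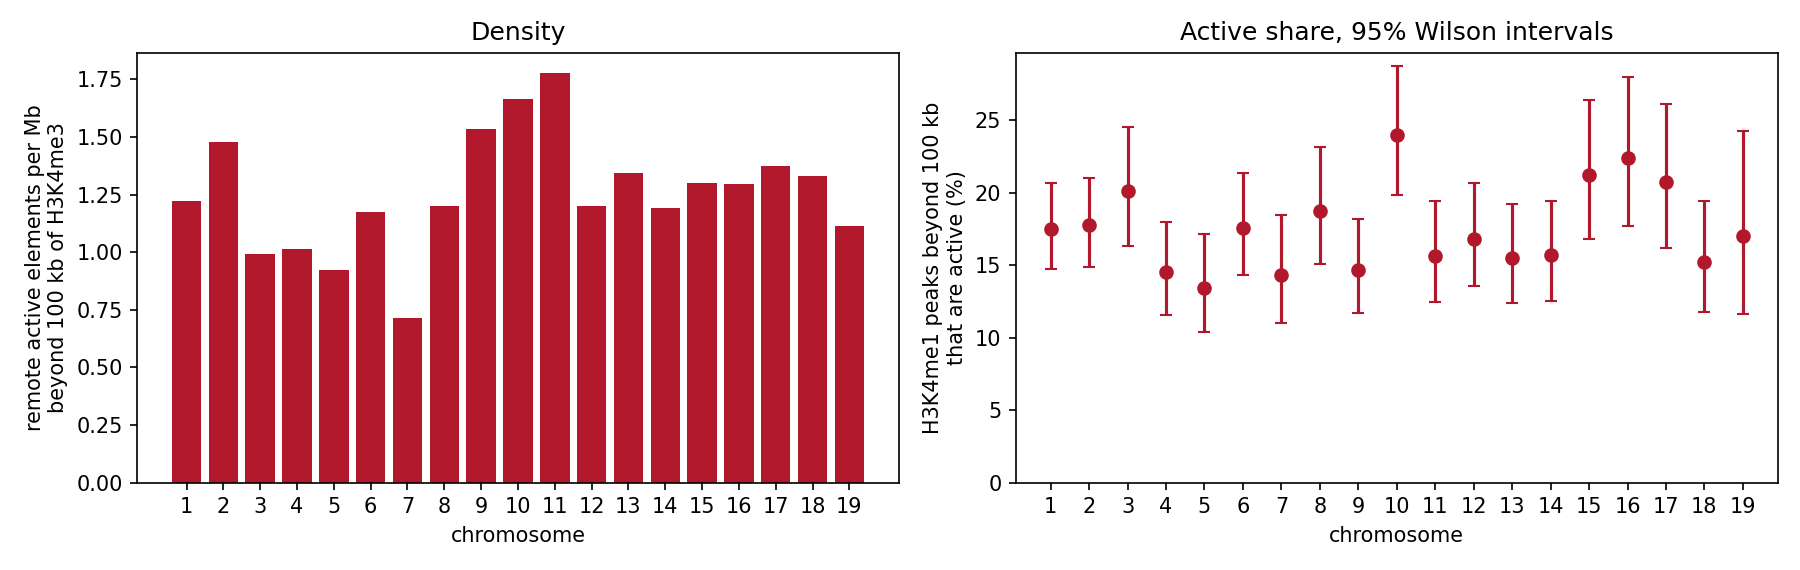
Remote active elements by chromosome. Left, elements per Mb of sequence beyond 100 kb of H3K4me3; right, percent of H3K4me1 peaks beyond 100 kb that are active, with 95% Wilson intervals. The density runs from 0.715 per Mb on chromosome 7 to 1.78 per Mb on chromosome 11, and chromosome 10 has the highest active share at 24.0%.

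Most remote elements stood alone. Joined within 12500 bp, the 1265 elements formed 1107 units, of which 982 were single elements and 125 held 2 or more. Another remote element within 12500 bp was thus found for 283 (22.4%, 20.2 to 24.7), against 40.6% (39.3 to 41.9) for middle-range elements and 28.5% (26.7 to 30.3) for near ones counted among their own kind. The share depends on how many elements of the kind there are.

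The unit with the most elements lay on chromosome 2 at 13315535 to 13336020. Its 5 elements spanned 20.5 kb, with 5.84 kb of H3K27ac inside 7.73 kb of H3K4me1, and were of modest strength, with a highest H3K4me1 score of 173. In its gap of 272 kb, 6 H3K4me1 peaks lay beyond 100 kb from H3K4me3, 5 of them active. A further 8 units held 4 elements each. Of these, the 4 with the most acetylated length lay on chromosome 11 at 88336797 to 88376320, with 13.1 kb of H3K27ac, chromosome 16 at 9267614 to 9292624, with 7.78 kb, chromosome 8 at 129348181 to 129364634, with 7.38 kb, and chromosome 3 at 14996458 to 15008338, with 7.15 kb. None of these 5 units overlapped H3K27me3. The rule fixes this for the elements themselves, so only the sequence between them could have shown an overlap.

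A gap on chromosome 11, from 88049626 to 88576652, had 12 remote elements, the most of any gap, among 33 remote H3K4me1 peaks. It was singled out after its values were seen. Its 527 kb held 53 H3K4me1 and 45 H3K27ac peaks in all, and 0 H3K27me3 peaks. The elements there ranged in width from 904 bp to 9904 bp and in H3K4me1 score from 75.7 to 1222, so weak and strong ones lay side by side.

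Both of the highest H3K4me1 scores among all remote elements fell in this gap. The element at 88336797 to 88343306 scored 1222, was 6.51 kb wide and overlapped 3 H3K27ac peaks that covered 2.47 kb. The widest remote element, at 88360357 to 88370260, scored 1188 over 9.90 kb and overlapped 4 H3K27ac peaks. Its neighbour at 88370356 to 88376320, 5.97 kb wide, had 81.2% of its length under H3K27ac. The element at 88395376 to 88401416 had the highest acetylation score of the 12, at 2778, against 53.5 for the lowest, while 4 of the others exceeded its H3K4me1 score of 628. The H3K4me3 peaks that bounded the gap were narrow and weak, at 599 bp with a score of 139 on the left and 293 bp with a score of 56.7 on the right. Just outside the right end, H3K4me3 peaks with scores of 3100 and 1882 followed within the next few kb.

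**Figure D5:**
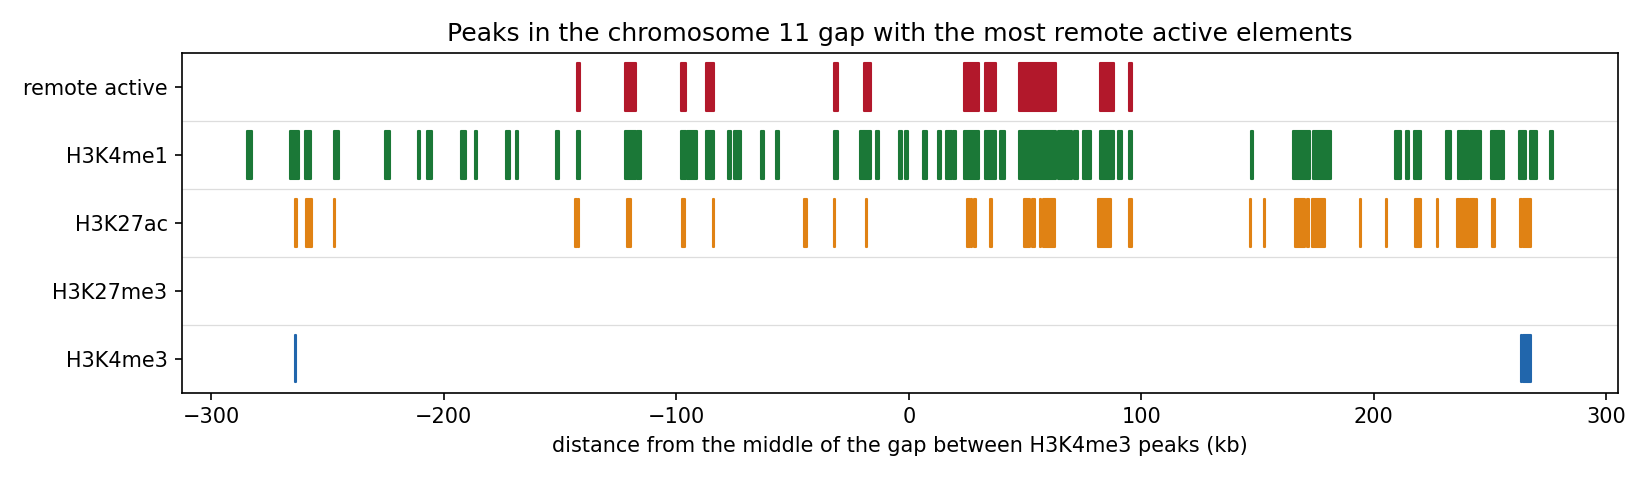
Peaks of the 4 marks and the 12 remote active elements in the chromosome 11 gap, by distance in kb from the middle of the gap. Bars are peaks drawn to scale, the H3K27me3 row is empty, and the remote active elements lie between the H3K4me3 peaks at both ends, among the 53 H3K4me1 peaks.

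The remaining elements with high H3K4me1 scores differed in their acetylation. On chromosome 11 at 35137026 to 35143814, a score of 1182 over 6.79 kb went with 1.41 kb of H3K27ac. On chromosome 6 at 108403262 to 108410054, a score of 1163 went with a single H3K27ac peak over 4.50 kb that reached a score of 3100. That element had no other active peak within 50 kb. On chromosome 5 at 140649182 to 140655126, a score of 1146 went with 0.574 kb of H3K27ac at a score of 69.3, or 9.66% of the peak. Among these 3 elements, H3K27ac thus covered between 9.66% and 66.3% of a strong H3K4me1 peak.

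By acetylated length, the leading element lay on chromosome 2 at 161163403 to 161170000, 155 kb from H3K4me3. A single H3K27ac peak with a score of 3100 covered 4.99 kb of its 6.60 kb, and no other active peak lay within 50 kb. After it came 3 elements of the chromosome 11 gap, with 4.85, 4.71 and 4.56 kb, and an element on chromosome 3 at 148880885 to 148885566. The whole 4.68 kb of that one lay under H3K27ac with a score of 3100, and the nearest H3K27me3 peak was 2823 kb away.

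The 5 elements farthest from H3K4me3 were small and mostly weak. The farthest, on chromosome 8 at 6606529 to 6607550, lay 1797 kb away, with an H3K4me1 score of 89.3 and an H3K27ac score of 50.4, close to the lowest in the list. Another in the same gap, at 6812673 to 6814206, lay 1675 kb away, with an H3K27ac score of 144. An element on chromosome 18 lay 1768 kb away and had 194 bp, or 20.7%, of its length under H3K27ac. The element on chromosome 13 at 27122754 to 27124413, 1725 kb away, was the best acetylated of the 5, with 96.7% of its 1660 bp covered and an H3K27ac score of 383. On chromosome 2 at 40765622 to 40766792, 1683 kb away, 2 H3K27ac peaks covered 55.8%. Of these 5 elements, the one at 6606529 had 1 other H3K4me1 peak within 50 kb and the rest had 0.

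The 5 longest gaps with a remote element ran from 3.68 to 4.52 Mb. The longest, on chromosome 18, held 3 remote active elements among 10 remote H3K4me1 peaks. On chromosome 17 at 59152953 to 63228514, 4 of 14 were active, on chromosome 11 at 12365515 to 16156951, 2 of 8, and on chromosome 2 at 44973327 to 48668573, 1 of 14. The gap on chromosome 8 at 4809866 to 8489120 held 6 active among 11 remote H3K4me1 peaks (54.5%, 28.0 to 78.7). Counts this small leave wide intervals.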

How the data were processed

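Chromatin immunoprecipitation and sequencing gave 1 peak list per mark for H3K4me1, H3K4me3, H3K27ac and H3K27me3; the input sample was not analysed here. The authors deposited the position of each peak on mm9 and a score, which served to rank or filter peaks of the same list. Bowtie 0.12.9, MACS 1.4 and Cufflinks appear, without roles, in the submitters' processing notes. Not given in the sources used here are the calling threshold, the control and how duplicates were treated. Read depth is unknown for all 4 libraries, and a list called at greater depth is longer, with broader peaks, which bears on the shares and distances.

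Distances are bases between peak edges. Intervals are 95% Wilson intervals for shares and order-statistic intervals for medians. H3K4me3 gaps run between consecutive H3K4me3 peaks, or from the outermost one to the first or last peak of any list. Named regions are the 5 farthest, highest-scoring and most acetylated members, the 5 units with most members and the 5 longest gaps; members and rules were chosen with earlier results of these data known. Gene names and sequences are not given, since the annotation at hand is of another build, GRCm38.p6, and planned motif and gene-start comparisons were not run. The rule was checked on simulated lists. Python 3.11.15, numpy 2.4.6, scipy 1.17.1, pandas 2.3.3 and matplotlib 3.10.9 were used.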

Additional observations from a re-analysis of the deposited data

How the results depend on the processing

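No paired analysis was possible because each mark had 1 library. Under 10 other settings 49 values were computed; the differences in width and score stayed negative in each setting run. The joining distances bear on 1 value only, and the score difference was not run for joined peaks. The number of remote elements (1265) was 712 with H3K4me1 peaks at or above their median score, 569 with H3K27ac so limited, 2337 with H3K4me3 so limited, 2717 beyond 50 kb and 478 beyond 200 kb, as the construction of each implies. The active share of remote H3K4me1 (17.2%) was 16.4% with at least 50% of the H3K27ac peak inside, 29.1% and 7.75% with H3K4me1 and H3K27ac limited by score, and 18.7% beyond 200 kb. The remote share of active distal elements (13.4%) was 10.6%, 12.6% and 20.7% with H3K4me1, H3K27ac and H3K4me3 limited by score, 28.7% beyond 50 kb, 5.05% beyond 200 kb and 14.7% with H3K4me1 peaks joined within 1 kb. The share with another element within 12500 bp (22.4%) was 19.9% with 50% overlap, 17.3%, 18.6% and 28.6% under the 3 score limits, 29.3% beyond 50 kb, 15.3% beyond 200 kb, 15.2% with joined peaks, 16.5% with joining within 5 kb and 29.3% within 25 kb. The remote minus middle-range median width (-384 bp) was -280, -497.5 and -287 bp under the score limits, -247 bp beyond 50 kb, -471.5 bp beyond 200 kb and -590 bp with joined peaks. For the H3K4me1 score (-70.7) the differences were -56.5, -98.2, -58.2, -45.4 (50 kb) and -84.6 (200 kb). With the limit at 50 kb or 200 kb, the middle range also ended there, so the class compared against changed too. Unknown depth limits every share.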
